A study of Homo sapiens with 4 samples.

Results

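RAB small GTPases were examined as a family in human glioma cells given a microRNA. Members were the probe sets whose only gene symbol was RAB followed by a number and, in most, a letter, a rule that does not use the measured values. There were 56 such genes of the 17716 named genes on the arrays, and each was read through its probe set with the highest mean. The cells were Hs683, an established human glioma line, in which the RNA-binding protein gene QK (now QKI) had been knocked down in every array. One group had been transduced with miR-20a and the other with miR-NT, a control microRNA of scrambled sequence, and each group had 2 arrays of total RNA. The comparison addressed which RAB transcripts differed when miR-20a was present, step by step along the membrane trafficking routes.

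RAB proteins are molecular switches on membranes. Bound to GTP they recruit effectors that tether, move and fuse vesicles, and bound to GDP they are taken off the membrane by the GDP dissociation inhibitors. Each RAB marks a compartment, so the family as a whole maps the secretory, endocytic, recycling and lysosomal routes, and in glioma and other migrating cells the endocytic and recycling RABs carry integrins and growth factor receptors.

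A microRNA acts mainly through its seed, bases 2 to 8 from its 5′ end, which pairs with sites in messenger RNAs. The sequences below show the agent that was added and cellular microRNAs that share its seed, as RefSeq gives them (GRCh38.p14), with the seed in capitals. Among the mature human microRNAs read from that table, 8 carried the seed of miR-20a, of which 6 are shown. The miR-20a-5p sequence lies at chr13:91351072-91351094 on the plus strand.
hsa-miR-20a-5p: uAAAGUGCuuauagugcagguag
hsa-miR-17-5p: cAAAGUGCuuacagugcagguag
hsa-miR-20b-5p: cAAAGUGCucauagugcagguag
hsa-miR-106a-5p: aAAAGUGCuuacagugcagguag
hsa-miR-106b-5p: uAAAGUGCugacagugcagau
hsa-miR-93-5p: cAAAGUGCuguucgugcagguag
All 6 share the seed, and miR-17-5p, miR-20b-5p and miR-106a-5p each differ from miR-20a-5p at 2 positions. No target sites in RAB transcripts were searched, since transcript sequences were not used here.

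The 4 arrays had medians between 6.43 and 6.45 on the log2 scale over all 20323 probe sets. QKI, the target of the knockdown, measured 7.52 and 7.08 with miR-20a, against 8.14 and 7.92 with miR-NT (difference −0.73, SE 0.16, limma adjusted p = 0.106); since every array carried the knockdown, it does not check the labels. The ACTB 5′ control probe set had 11.59 and 10.43 with miR-20a, against 12.78 and 12.66 with miR-NT. Its signal falls with degraded RNA or poor labelling, and also where the transcript itself is lower. No 3′ control probe set was compared with it. The same kind of probe set for GAPDH had 13.17 and 12.30 with miR-20a, against 13.89 and 13.81 with miR-NT. In both controls the miR-20a arrays lay below the miR-NT arrays, and replicate 2 was the lowest of the 4. Of 12 glial and glioma markers, 8 passed the filter on dim genes, but only 3, VIM, CD44 and SOX9, were brighter than the median gene. SOX2, PDGFRA, CSPG4, ALDH1L1 and FABP7 passed the filter but lay below the median gene. GFAP, S100B, NES and OLIG2, markers of astrocytic, progenitor and oligodendroglial cells, were among the dimmest 30% of genes. On the lists of immune, epithelial and endothelial markers, PTPRC, CD14, EPCAM, CDH1, KRT19, VWF, CDH5 and KDR were also among the dimmest 30%. Other listed genes passed the filter, 3 of 5 measured immune genes (AIF1, CD3E and CD79A), 1 of 4 epithelial (KRT5), 1 of 4 endothelial (PECAM1) and 3 of 5 neuronal, and their part in the results was not tested. Of the immune, epithelial and neuronal genes, AIF1 (mean 7.53), CD3E (7.51), KRT5 (6.83), SNAP25 (7.52) and SYT1 (6.56) were brighter than the median gene (6.52). Each array holds RNA of many cells, so fewer cells of a kind and less RNA per cell cannot be told apart.

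No RAB gene passed the test. Of the 56 members, 46 were bright enough to be tested, and 0 passed limma at an adjusted p under 0.05 in either direction, where 0.00806% of the 12401 tested genes were lower and 0% were higher; the smallest adjusted p of a member was 0.0981. At an unadjusted p under 0.05, 7 members were lower (15.2%, where 13.2% of all tested genes were) and 4 were higher (8.70%, where 5.82% were), so both shares lay near the background. After quantile normalization these counts were 5 lower and 7 higher, where 11.7% and 12.8% of all tested genes were. The groups were fully apart with miR-20a lower in 20 of the 56 members, or 35.7%, where the same held for 27.2% of all 17716 genes. They were fully apart with miR-20a higher in 15 members, or 26.8%, where 26.7% of all genes did. Among tested genes alone, miR-20a was fully lower in 16 of 46 members and in 3852 of 12401 genes. It was fully higher in 13 and 3117.

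Over all 56 members the median difference, miR-20a minus miR-NT, was −0.04 on the log2 scale, beside 0.003 over all genes. Of the members, 37 were brighter than the median gene. The 46 tested members had a median of −0.04, beside −0.02 over all tested genes and −0.04 with the dimmest 50% of genes left out. After adjustment for the ACTB 5′ signal (that signal of each array as a covariate of the fit) the median of the 56 was 0.08. That signal differed between the groups and, within them, mainly in the miR-20a pair, so adjusted values rest largely on that pair. Differences were below 0 in 34 members and above in 22 (60.7% below, where 49.5% of all genes were). Among those tested, 60.9% of members and 53.8% of genes were below 0. Most differences were small: 21 members had all 4 arrays within 0.25 of each other, and 4 members, all lower with miR-20a, differed by 0.5 or more. These 4 were RAB1A, RAB5C, RAB14 and RAB11B, chosen here by that size. Since no member passed, "lower" and "higher" below describe measured means and not tested changes. The labels do not say whether replicates were separate cultures, so the spread between arrays may be technical.

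**Figure D1:**
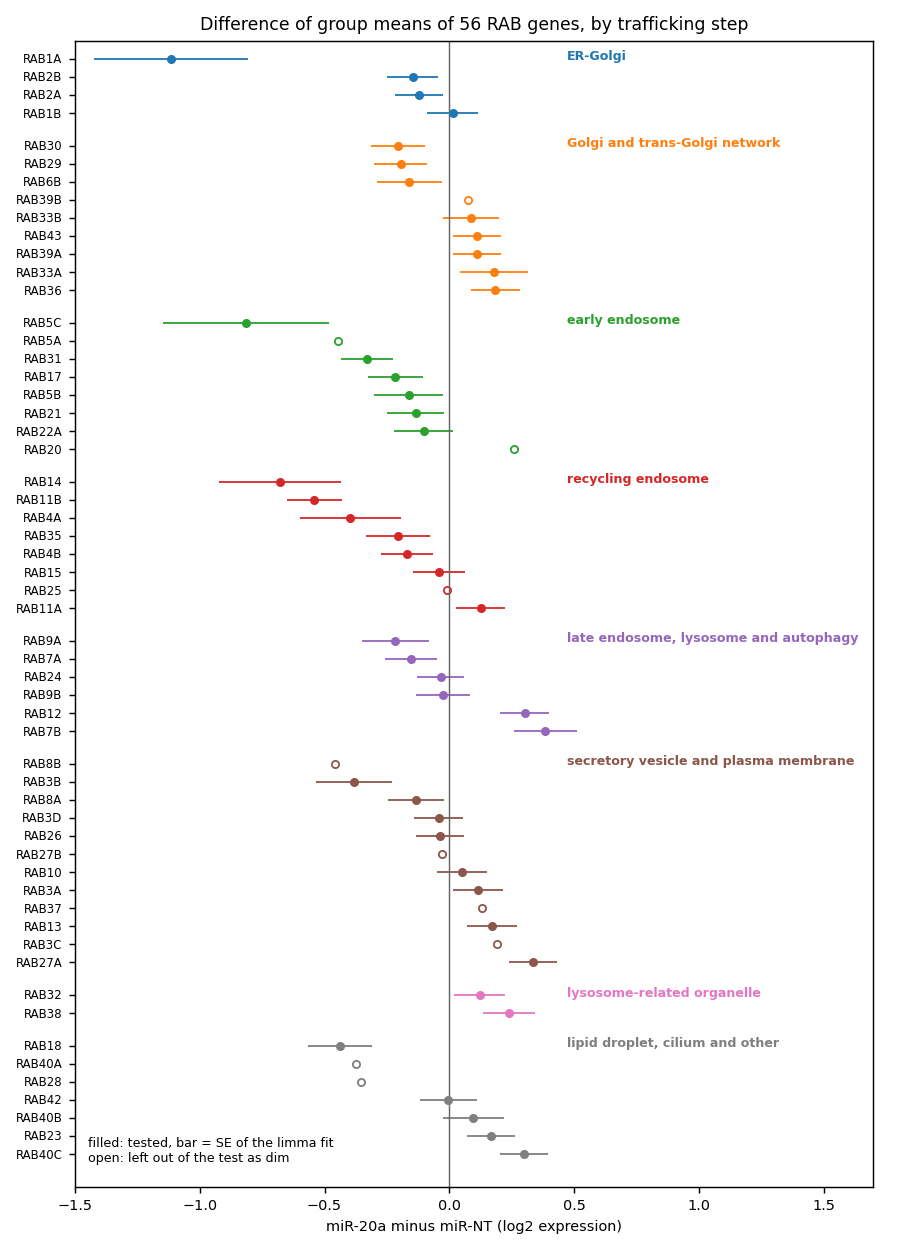
Difference of group means (miR-20a minus miR-NT, log2 expression, x axis) of each of the 56 RAB genes, grouped by trafficking step and coloured by it; filled points are tested genes with the SE of the limma fit as a bar, open points were left out as dim. RAB1A, at −1.12, lies farthest from 0, and 7 of 8 early endosome genes and 7 of 8 recycling endosome genes lie below 0.

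RAB1 and RAB2 govern traffic from the endoplasmic reticulum (ER) to the Golgi and back. RAB1A, which recruits the tethers that dock ER-derived vesicles at the Golgi, measured 8.65 and 7.51 with miR-20a, against 9.28 and 9.11 with miR-NT. Both miR-20a arrays were below both miR-NT arrays, and replicate 2 of miR-20a stood far below the other 3. The log2 difference was −1.12 (SE 0.31), or 2.17-fold lower, and did not pass (limma adjusted p = 0.156). Leaving out miR-20a replicate 2 gave −0.55, and leaving out its partner gave −1.68. After adjustment for the ACTB 5′ signal the difference was 0.57. Its close paralog RAB1B, which acts at the same step and was the brightest probe set of the group, measured 10.93 and 10.93 with miR-20a, against 11.00 and 10.83 with miR-NT. The RAB1B groups overlapped, with a difference of 0.01 (SE 0.10, limma adjusted p = 0.942).

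RAB2A, which tethers vesicles at the Golgi, measured 10.81 and 10.78 with miR-20a, against 10.92 and 10.92 with miR-NT. RAB2B, its paralog, measured 8.03 and 8.16 with miR-20a, against 8.30 and 8.19 with miR-NT. The groups did not overlap in either, but the differences were small, −0.12 (SE 0.09) and −0.15 (SE 0.10). Over the 4 genes of the step the median difference was −0.13, which was −0.04 after quantile normalization and −0.02 after ACTB 5′ adjustment.

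At the Golgi and trans-Golgi network 9 genes were measured, 6 with a difference above 0 and 3 below, and the median was 0.09. Differences ran from −0.21 to 0.18, and none had an unadjusted p under 0.05. RAB36, the brightest probe set of this group, measured 8.01 and 7.94 with miR-20a, against 7.75 and 7.83 with miR-NT (difference 0.18, SE 0.10, limma adjusted p = 0.331). RAB39A measured 7.29 and 7.27 with miR-20a, against 7.13 and 7.20 with miR-NT. RAB43, a Golgi RAB, measured 7.07 and 7.04 with miR-20a, against 6.93 and 6.96 with miR-NT. In these 3 genes both miR-20a arrays were slightly above both miR-NT arrays.

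On the other side of 0 lay RAB30, RAB29 and RAB6B. RAB30, a Golgi RAB, measured 6.24 and 6.02 with miR-20a, against 6.36 and 6.32 with miR-NT. RAB29, which recruits the kinase LRRK2 to the trans-Golgi network, measured 7.80 and 7.67 with miR-20a, against 7.99 and 7.86 with miR-NT. RAB30 and RAB29 did not overlap between groups, while RAB6B, a retrograde transport RAB, did, with 5.87 and 6.07 with miR-20a against 6.27 and 5.99 with miR-NT. RAB33A and RAB33B, the second of which binds the autophagy protein ATG16L1, had overlapping groups and differences of 0.18 and 0.09. RAB39B lay among the dimmest genes, at 4.30 and 4.35 with miR-20a, against 4.30 and 4.20 with miR-NT.

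**Figure D2:**
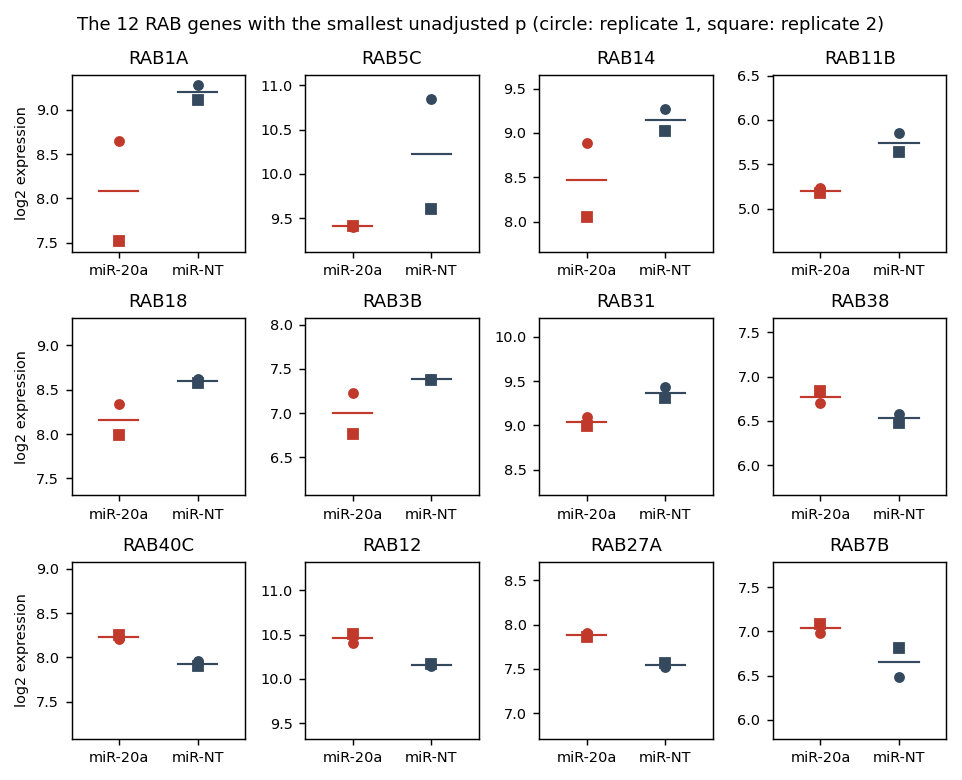
Log2 expression (y axis, each panel spanning 2 units) on each array of the 12 RAB genes with the smallest unadjusted p, ordered from the most negative to the most positive difference; circles are replicate 1, squares replicate 2, lines the group mean. The miR-20a arrays of RAB1A, RAB14, RAB18 and RAB3B lie apart from each other, and so do the miR-NT arrays of RAB5C; in the other panels the replicates lie closer together.

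Early endosome RABs were below 0 in 7 of 8 genes, with a median difference of −0.19. The median was also −0.19 after ACTB 5′ adjustment, but the signs of several genes turned. RAB5B (0.11), RAB21 (0.24) and RAB22A (0.26) then lay above 0 and RAB20 (−0.21) below. RAB5C, one of 3 RAB5 paralogs that drive homotypic fusion of early endosomes, measured 9.40 and 9.41 with miR-20a, against 10.84 and 9.61 with miR-NT. One array, miR-NT replicate 1, stood 1.23 above its partner and set the size of the difference. That difference was −0.82 (SE 0.33, limma adjusted p = 0.248), and −0.20 without miR-NT replicate 1. RAB5B measured 8.89 and 8.74 with miR-20a, against 9.16 and 8.79 with miR-NT, and its groups overlapped. RAB5A was too dim to be tested, with 5.01 and 5.14 with miR-20a, against 5.61 and 5.43 with miR-NT. Both RAB5A arrays with miR-20a were the lower ones.

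RAB31, which acts between the Golgi and endosomes, measured 9.09 and 8.99 with miR-20a, against 9.44 and 9.31 with miR-NT. Its groups did not overlap and its replicates lay close together, with a difference of −0.33 (SE 0.10, limma adjusted p = 0.180). That difference ranged from −0.39 to −0.27 with an array left out and was −0.16 after ACTB 5′ adjustment. RAB17 measured 5.73 and 5.91 with miR-20a, against 6.10 and 5.98 with miR-NT. RAB21, which binds integrin tails during their endocytosis, measured 9.50 and 9.25 with miR-20a, against 9.52 and 9.50 with miR-NT. RAB22A, a RAB of early and recycling endosomes, measured 8.37 and 8.13 with miR-20a, against 8.43 and 8.28 with miR-NT. RAB17 did not overlap between groups, RAB21 and RAB22A did. RAB20, a RAB of phagosomes and endosomes, was the exception in direction, at 5.34 and 5.63 with miR-20a, against 5.09 and 5.36 with miR-NT, and was left out of the test as dim.

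Recycling endosome RABs were likewise below 0 in 7 of 8 genes, with a median difference of −0.19, which was 0.10 after ACTB 5′ adjustment. RAB14, which sorts cargo between the trans-Golgi network and recycling endosomes, measured 8.89 and 8.05 with miR-20a, against 9.27 and 9.02 with miR-NT. Replicate 2 of miR-20a was again the lowest array (replicate 2 minus replicate 1, −0.84). The difference was −0.68 (SE 0.24, limma adjusted p = 0.216). It was −0.26 when miR-20a replicate 2 was left out and 0.58 after ACTB 5′ adjustment. RAB11B, which with RAB11A returns cargo slowly to the surface, measured 5.23 and 5.18 with miR-20a, against 5.85 and 5.64 with miR-NT. It had the smallest p of the family (difference −0.54, SE 0.11, limma adjusted p = 0.0981), and its difference kept its sign with every array left out, from −0.64 to −0.44, and after ACTB 5′ adjustment (−0.44). Its mean of 5.47 was just inside the filter, whose dimmest tested gene had 5.46, and both miR-20a values lay below that, so that the gene was tested through its miR-NT signal.

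RAB11A, by contrast in sign, measured 7.79 and 7.87 with miR-20a, against 7.74 and 7.66 with miR-NT (difference 0.13, SE 0.10). RAB4A, a RAB of fast recycling, was read by 2 probe sets with nearly equal means of 6.97, and they disagreed. The one taken by the rule measured 7.12 and 6.42 with miR-20a, against 7.15 and 7.18 with miR-NT (difference −0.40). The other measured 6.87 and 7.06 with miR-20a, against 7.06 and 6.90 with miR-NT (difference −0.02), so the lower value rests on 1 probe set, where it was −0.05 without miR-20a replicate 2 and 0.63 after ACTB 5′ adjustment. RAB4B measured 8.28 and 8.44 with miR-20a, against 8.50 and 8.55 with miR-NT. RAB35, a plasma membrane and recycling RAB and the brightest probe set here, measured 9.33 and 9.01 with miR-20a, against 9.45 and 9.30 with miR-NT (difference −0.21, SE 0.13, limma adjusted p = 0.391, and 0.27 after ACTB 5′ adjustment), with overlapping groups. It was −0.05 without miR-20a replicate 2, −0.36 without miR-20a replicate 1 and −0.38 with its probe sets averaged. The second and much dimmer probe set of RAB35 had 4.96 and 4.81 with miR-20a, against 5.50 and 5.39 with miR-NT. RAB15 had overlapping groups (difference −0.04). RAB25, an epithelial RAB11 relative, was dim and almost identical on all arrays, at 4.99 and 5.01 with miR-20a, against 5.01 and 5.01 with miR-NT.

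Among RABs of late endosomes, lysosomes and autophagy the signs were mixed, 4 below 0 and 2 above, with a median of −0.03, which was 0.14 after ACTB 5′ adjustment. The 2 above 0 were among the members with the smallest p. RAB7B, which acts between endosomes and the trans-Golgi network, measured 6.98 and 7.09 with miR-20a, against 6.49 and 6.81 with miR-NT (difference 0.39, SE 0.13, limma adjusted p = 0.195). RAB12, which steers transferrin receptor to degradation, measured 10.41 and 10.50 with miR-20a, against 10.14 and 10.16 with miR-NT (difference 0.30, SE 0.10, limma adjusted p = 0.188). Neither gene overlapped between groups, and both stayed above 0 with every array left out (RAB7B from 0.23 to 0.54, RAB12 from 0.25 to 0.35). After ACTB 5′ adjustment they were 0.19 and 0.16, both smaller than the SE of 0.25 in that fit.

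RAB7A, the RAB of fusion with lysosomes, measured 10.67 and 10.48 with miR-20a, against 10.73 and 10.73 with miR-NT (difference −0.15, SE 0.11, limma adjusted p = 0.423, and 0.12 after ACTB 5′ adjustment). RAB9A, which returns mannose 6-phosphate receptors to the Golgi, measured 9.04 and 8.72 with miR-20a, against 9.20 and 9.00 with miR-NT. The RAB9A difference of −0.22 became 0.28 after ACTB 5′ adjustment. RAB24, an autophagy-linked RAB, lay between 8.92 and 8.98 on all 4 arrays. RAB9B differed by −0.02. RAB7A and RAB24 did not overlap between groups while both RAB9 genes did, and all 4 differences were small.

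RABs of secretory vesicles and of delivery to the plasma membrane were split evenly, 6 below 0 and 6 above, with a median difference of 0.01. RAB27A, which docks secretory lysosomes, melanosomes and exosome-bearing bodies at the surface, measured 7.90 and 7.86 with miR-20a, against 7.52 and 7.57 with miR-NT. Both groups were tight and apart, with a difference of 0.33 (SE 0.10, 1.26-fold higher), which did not pass (limma adjusted p = 0.161). It ranged from 0.31 to 0.36 with an array left out and was 0.39 both after quantile normalization and after ACTB 5′ adjustment. RAB27B was among the dimmest genes (difference −0.03). RAB13, a tight junction RAB and the brightest probe set of the family, measured 11.85 and 11.95 with miR-20a, against 11.68 and 11.77 with miR-NT (difference 0.17, SE 0.10, limma adjusted p = 0.369).

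RAB3B, one of the RAB3 genes of regulated exocytosis, measured 7.23 and 6.76 with miR-20a, against 7.38 and 7.38 with miR-NT. The miR-20a arrays lay apart (replicate 2 minus replicate 1, −0.47) and the miR-NT arrays were nearly equal. The difference was −0.38 (SE 0.15, limma adjusted p = 0.244), −0.15 with miR-20a replicate 2 left out and 0.31 after ACTB 5′ adjustment. RAB3A had a difference of 0.11 and RAB3D of −0.04. RAB10, which carries glucose transporters to the surface, measured 10.64 and 10.67 with miR-20a, against 10.67 and 10.54 with miR-NT. RAB8A, a RAB of polarised exocytosis and cilia, measured 10.75 and 10.62 with miR-20a, against 10.92 and 10.72 with miR-NT. RAB10 and RAB8A overlapped between groups. RAB8B was left out as dim, although its groups were apart, at 4.15 and 4.16 with miR-20a, against 4.79 and 4.44 with miR-NT. RAB26 differed by −0.04, and RAB3C and RAB37, both dim, by 0.19 and 0.13.

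The 2 RABs of lysosome-related organelles, which deliver melanosome enzymes in pigment cells, were both above 0. RAB38 measured 6.70 and 6.84 with miR-20a, against 6.58 and 6.48 with miR-NT (difference 0.24, SE 0.10, limma adjusted p = 0.269, and 0.04 after ACTB 5′ adjustment). RAB32, which also anchors protein kinase A at mitochondria, measured 7.07 and 6.96 with miR-20a, against 6.96 and 6.83 with miR-NT (difference 0.12, SE 0.10, limma adjusted p = 0.509). Their groups did not overlap, though only narrowly in RAB32.

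Of the remaining members, RAB18, a RAB of lipid droplets and the endoplasmic reticulum, measured 8.34 and 7.99 with miR-20a, against 8.63 and 8.58 with miR-NT. The difference was −0.44 (SE 0.13, limma adjusted p = 0.168), −0.27 with miR-20a replicate 2 left out, and 0.07 after ACTB 5′ adjustment. RAB40C, of the RAB40 group whose SOCS box links it to a ubiquitin ligase, measured 8.20 and 8.25 with miR-20a, against 7.95 and 7.91 with miR-NT. It differed by 0.30 (SE 0.10, limma adjusted p = 0.186), with a range from 0.27 to 0.33 when an array was left out and 0.23 (SE 0.25) after ACTB 5′ adjustment. RAB23, which restrains hedgehog signalling, measured 6.48 and 6.41 with miR-20a, against 6.24 and 6.31 with miR-NT. RAB18, RAB40C and RAB23 did not overlap between groups. RAB42 (difference −0.004) and RAB40B (0.10) overlapped. RAB28, a ciliary RAB, and RAB40A were left out as dim, with differences of −0.35 and −0.38.

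In all, 10 RABs were too dim to be tested, with 6 differences below 0 and 4 above. The members nearest the limit were RAB20 (mean 5.36) and RAB5A (5.30) just outside it and RAB11B (5.47) and RAB33A (5.54) just inside it. Probe-set brightness differs between genes for reasons other than transcript number, so no member's level was set against another's. A further 5 probe sets with a RAB symbol carried several gene symbols and were not named. RAB6A, RAB6C, RAB19, RAB34, RAB41 and RAB44 were not analysed here.

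RAB genes that share a number are close paralogs. Of 13 such subfamilies with 30 members in all, 6 held both signs, among them RAB1 and RAB27, where RAB1B (0.01) and the dim RAB27B (−0.03) lay close to 0. The widest gap was that between RAB1A and RAB1B, 1.13 on the log2 scale, followed by RAB40 (0.68, from RAB40A to RAB40C), RAB11 (0.67) and RAB5 (0.65, from RAB5C to RAB5B). The narrowest was RAB2 at 0.03, then RAB39 at 0.04 and RAB33 at 0.09. These gaps between paralogs were not tested.

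**Figure D3:**
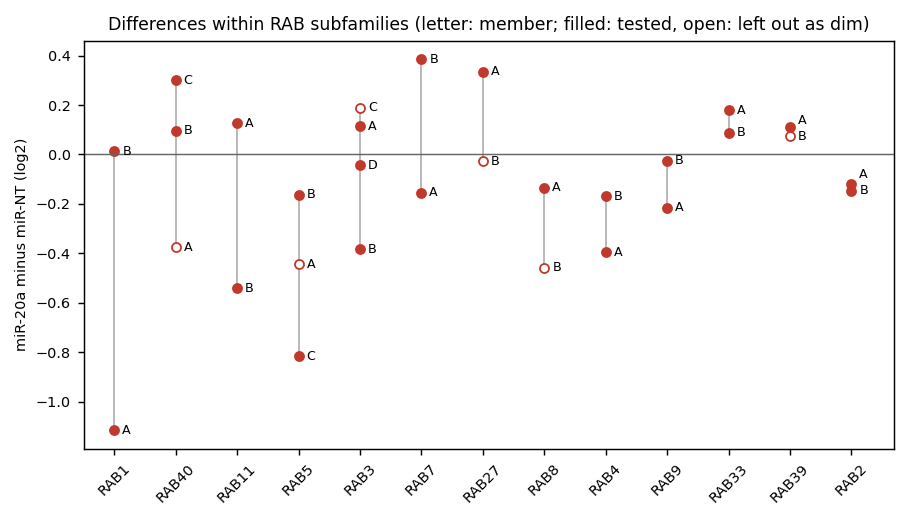
Difference of group means (miR-20a minus miR-NT, log2, y axis) of the 30 RAB genes in 13 subfamilies that share a number, ordered from the widest gap to the narrowest; letters name the member, filled points were tested and open points left out as dim. RAB1A lies at −1.12 and RAB1B at 0.01, while the RAB2 genes lie 0.03 apart.

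The arrays with miR-20a were themselves unlike in several members. Replicate 2 minus replicate 1 was −1.13 for RAB1A, −0.84 for RAB14 and −0.70 for RAB4A on the log2 scale, and replicate 2 had the lower ACTB 5′ signal. Of the 7 members lower at an unadjusted p under 0.05, 6 were lower in that replicate, as were 65.2% of tested members and 58.9% of all tested genes, and RAB5C differed by 0.01 within the pair. After adjustment for that signal 3 of the 7 stayed below 0, RAB11B, RAB31 and RAB5C. The SE in that fit was 0.25 for each of the named members, larger than the −0.16 of RAB31. Being the same for all of them, it does not measure the spread of a single gene. The 4 members higher at that p, RAB27A, RAB12, RAB7B and RAB40C, were all above 0 in the same fit. Of these, RAB12 (0.16), RAB7B (0.19) and RAB40C (0.23) were likewise smaller than that SE. Among the 46 tested members 12 were below 0 in that fit, and 28 without the adjustment, and the sign turned for 20 of the 46. The ACTB 5′ signal was lower in both miR-20a arrays (11.59 and 10.43) than in both miR-NT arrays (12.78 and 12.66), so the adjustment cannot fully separate it from the group. Within groups it differed mainly between the miR-20a arrays, so adjusted differences lean on that pair. The part of RNA or labelling quality in these values was not tested beyond this adjustment, which leaves 1 residual degree of freedom.

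**Figure D4:**
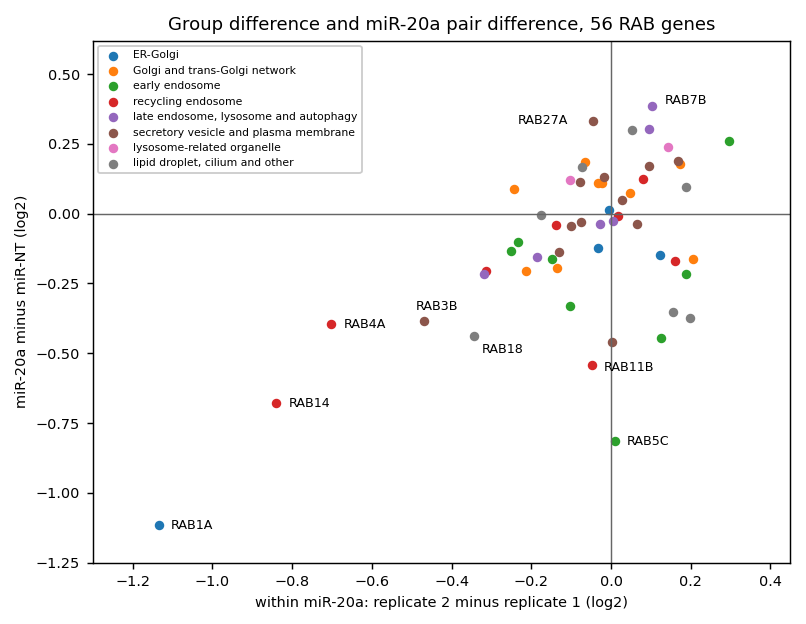
Replicate 2 minus replicate 1 of the miR-20a arrays (log2, x axis) and group difference (miR-20a minus miR-NT, log2, y axis) of the 56 RAB genes, coloured by trafficking step. Both axes contain the miR-20a arrays, so that they are not independent; RAB1A and RAB14 lie far to the lower left, while RAB5C and RAB11B lie near 0 on the x axis.

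The proteins that load, free and read RABs were looked at through 5 lists of 183 genes in all, of which 170 were measured and 133 tested. None passed limma at an adjusted p under 0.05 in either direction. At an unadjusted p under 0.05, 15 were lower (11.3%) and 9 higher (6.77%), shares near the 13.2% and 5.82% of all tested genes. The median difference of the 170 was −0.04, beside 0.003 over all genes, and that of the 133 was −0.04, beside −0.02 over all tested genes. The largest difference was that of GDI2, a GDP dissociation inhibitor that pulls inactive RABs off membranes. GDI2 measured 8.14 and 7.44 with miR-20a, against 9.06 and 8.76 with miR-NT (difference −1.12, SE 0.22, limma adjusted p = 0.0963). Both miR-20a arrays were lower, the second most so, and the difference was −0.77 when replicate 2 was left out and −0.04 after ACTB 5′ adjustment. In the same list of 4 tested genes, RABIF differed by 0.19 and RABAC1, a receptor for prenylated RABs, by −0.10.

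Of 38 tested exchange factors and their complex partners, which load GTP onto RABs, 3 were lower (7.89%) and 2 higher (5.26%) at that unadjusted p, against the same 13.2% and 5.82%. DENND1C, an exchange factor for RAB35, measured 7.44 and 7.48 with miR-20a, against 7.06 and 7.07 with miR-NT (difference 0.40, SE 0.09, limma adjusted p = 0.122). TRAPPC11, a subunit of the TRAPP complex that activates RAB1, measured 6.54 and 6.16 with miR-20a, against 6.86 and 6.68 with miR-NT (difference −0.42, and 0.17 after ACTB 5′ adjustment). HPS1, part of the exchange factor for RAB32 and RAB38, differed by −0.27. Of 27 tested GTPase-activating proteins, which switch RABs off, 2 were lower and 2 higher (7.41% each, against 13.2% and 5.82%). They included TBC1D22A (difference 0.34, SE 0.10), RABGAP1L (0.35, SE 0.11) and EVI5L (−0.40, SE 0.11). EVI5L had a mean of 5.47 and both miR-20a values below the dimmest tested mean, so that it too was tested through its miR-NT signal. DENND1C and TBC1D22A had tight replicates and groups that did not overlap, and they stayed above 0 with every array left out.

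Of 41 tested effectors, 5 were lower (12.2%) and 4 higher (9.76%) at that unadjusted p, against 13.2% and 5.82%. EXOC6, the exocyst subunit that binds RAB8 and RAB11, measured 6.11 and 6.11 with miR-20a, against 6.55 and 6.62 with miR-NT (difference −0.47, SE 0.10, limma adjusted p = 0.0991). Its difference was −0.48 after ACTB 5′ adjustment. RUFY1, an endosomal effector, differed by −0.37 (SE 0.12, and −0.07 after that adjustment), and EHBP1, which links RAB8 and RAB10 to actin, by 0.46 (SE 0.13, and 0.08 after it). Of 23 tested subunits of tethering complexes, 4 were lower (17.4%) and 1 was higher (4.35%), against 13.2% and 5.82%. The exocyst subunits EXOC5 and EXOC2 differed by −0.55 (SE 0.12) and −0.33 (SE 0.10), and by −0.13 and −0.28 after ACTB 5′ adjustment. VPS33B, a partner in late endosomal tethering, differed by 0.29 (SE 0.11, and −0.02 after ACTB 5′ adjustment).

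Upstream of their starts, RAB genes were examined for what they share in sequence. RefSeq windows of GRCh38.p14 were found for 44 of the 56 members, 62 windows in all since some genes have several starts, and the 250 bases before each start were searched on both strands. The GC box, GGGCGG, was in 75.8% of the RAB windows, beside 42.6% of all 35116 windows and 55.3% of the 19758 windows of genes on the arrays. CCAAT was in 30.6% of the RAB windows, 32.0% of all and 32.6% of those of genes on the arrays. In the same order, TATAAA was in 6.45%, 10.7% and 8.13%, CACGTG in 8.06%, 6.35% and 7.53%, and TGACGTCA in 1.61%, 1.65% and 2.1%. None of these motifs contains another, and windows of one gene can overlap or lie far apart. The windows of the members with the smallest p in each direction are printed 5′ to 3′ on the gene's strand, with GC box matches of either strand in capitals.
RAB11B, lower with miR-20a, chr19:8390110-8390359, plus strand: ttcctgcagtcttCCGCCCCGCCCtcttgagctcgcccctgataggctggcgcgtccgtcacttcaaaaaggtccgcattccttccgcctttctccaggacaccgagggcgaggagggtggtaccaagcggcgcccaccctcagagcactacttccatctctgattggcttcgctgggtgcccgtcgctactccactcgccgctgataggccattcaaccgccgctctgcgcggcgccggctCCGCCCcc
RAB27A, higher with miR-20a, most upstream of 5 starts, chr15:55319124-55319373, minus strand: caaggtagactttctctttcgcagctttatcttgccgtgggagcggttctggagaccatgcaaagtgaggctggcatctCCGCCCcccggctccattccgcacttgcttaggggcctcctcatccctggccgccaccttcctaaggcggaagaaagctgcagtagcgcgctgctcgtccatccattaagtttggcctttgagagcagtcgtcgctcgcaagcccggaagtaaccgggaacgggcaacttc
The RAB11B window holds 3 matches to the GC box, 2 of them overlapping, and the RAB27A window holds 1. Guanine and cytosine made up 65.6% of the first and 58.8% of the second, and neither held TATAAA. A match describes the letters of the window and does not show a bound factor.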

How the data were processed

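Total RNA of 4 samples was labelled and read on Affymetrix expression arrays, 2 with miR-20a and 2 with miR-NT. The authors deposited 1 value for each probe set on each array, on a log2 scale as far as the range of the values shows. The submitters' processing notes name the tool affy; version, background correction, summarisation and normalization: not given in the sources used here. Groups and replicate numbers come from the sample titles. Gene symbols came from the annotation of the platform, updated through the RefSeq gene table (GRCh38.p14): 18062 probe sets had 1 symbol (2 of them control probe sets that were not tested as genes), 886 several and 1375 none, and 18036 identifiers matched.

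For each of the 17716 genes the probe set with the highest mean was used, and the dimmest 30% were left out of the test. The remaining 12401 genes were fitted together in R 4.3.3 by lmFit and eBayes of limma 3.58.1 (no covariate, two-sided test, Benjamini-Hochberg over all of them, threshold 0.05). SEs are those of this moderated fit, with 2 residual and 5.53 prior degrees of freedom, except where the ACTB 5′ adjustment is named. Recovery of planted changes was checked on simulated data with independent noise. Some planted changes exceeded every RAB difference and the rest all but that of RAB1A, so recovery of smaller changes was not checked. The number of arrays limits the precision.

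The members, the trafficking steps and the lists of regulators were chosen with earlier results of these data known, and a list's median and counts are descriptions beside those of all genes. Named members are the 12 with the smallest unadjusted p and the brightest probe set of each step; others are given by their values. From each list of regulators the 3 tested genes with the smallest p are named. Other settings tried were 2 scalings (quantile and median), 2 filters (none and 50%), a robust prior with an intensity trend, averaged probe sets, replicate number as block, ACTB 5′ signal as covariate, and each array left out in turn.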

Additional observations from a re-analysis of the deposited data

How the results depend on the processing

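Of 215 values of named members under other settings, 198 kept their direction and side of the threshold. The filters, the replicate block and the prior leave the difference itself unchanged, so much of this count was fixed in advance. With the ACTB 5′ covariate, 6 of the 18 named members reversed. No RAB gene passed at an adjusted p except with a miR-20a array left out: 9 without replicate 1 and 2 without replicate 2 (range 0 to 9 over the 4 arrays), in fits that take that group's spread from the other, where 1869 and 260 of all 12401 genes passed. Over all tested genes 1 passed, and 0 with the replicate block, 4 with a 50% filter, 5 after quantile normalization, 6 with the ACTB 5′ covariate, 9 after median centring and 24 with a trend and robust prior. RAB genes lower at an unadjusted p under 0.05 numbered 7, but 11 without a filter, 1 with the covariate and 2 to 11 with an array left out, where the share of all tested genes moved too (10.9%, 3.46% and 4.43% to 20.5%, beside 13.2%). Those higher numbered 4, but 7 after quantile normalization and 0 to 5 with an array left out (12.8% and 2.49% to 8.45% of all tested genes, beside 5.82%). After quantile normalization the median difference was −0.0149 over all members, −0.10 for recycling endosome and 0.0556 for secretory RABs. With the covariate these were 0.0780, 0.0983 and 0.0899, and the late endosome and lipid droplet groups had 0.138 and 0.0736. With an array left out the medians ran from −0.0828 to −0.0125 over all members, 0.0235 to 0.0952 for Golgi, −0.312 to −0.139 for early endosome, −0.236 to −0.0471 for recycling, −0.0739 to 0.0201 for late endosome, −0.0104 to 0.0915 for secretory and −0.0988 to 0.0017 for lipid droplet and other RABs. With the covariate the sign turned for 20 of 46 tested members, among them RAB4A (0.63) and, of those with full statistics, RAB14 (0.58), RAB1A (0.57), RAB3B (0.31), RAB35 (0.27), RAB7A (0.12) and RAB18 (0.0736), and RAB1B (0.01) ran from −0.0695 to 0.0956 with an array left out; the cause was not tested. RAB11B has no value with the 50% filter. With the replicate block 0 RAB genes passed. At an unadjusted p under 0.05, 7 were then lower and 4 higher, where 17.2% and 8.26% of all tested genes were. Same-numbered deviations correlated at 0.267 over genes, and 2 pairs are too few to show that the numbers pair the samples. Signal over background limits RAB11B and other dim genes.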
